A study of Mus musculus with 12 samples.

Results

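Intronic regions are stretches of chromatin in which the repressive histone mark H3K9me2 was called and whose centre the deposited annotation places in an intron. They were taken from a pair of tables of called regions, 1 comparing FAD with WT mice and 1 comparing BIX01294-treated FAD mice with FAD mice. A region was kept if its centre lay in any intron, the last one included, if it lay more than 2000 bp from the nearest transcription start, and if it was on an autosome. Of 33787 regions in the FAD versus WT table, 7750 (22.9%) met this rule, in 2637 genes. Of 43680 regions in the FAD-BIX versus FAD table, 10152 (23.2%) did, in 3002 genes. The choice used position only, so read counts and fold changes played no part in it. At the distance limit, 87 regions of the first table lay 2000 to 2500 bp from a start, with median log2 ChIP over input of 0.71 and 2.27 in FAD mice and 0.96 and 0.87 in WT mice. Just outside it, 112 other intronic regions at 1500 to 2000 bp had 1.13 and 2.27 in FAD mice and 1.09 and 0.73 in WT mice. At identical coordinates the tables shared 4906 of these regions, which is 63.3% of the first set and 48.3% of the second.

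The samples came from prefrontal cortex of C57BL/6 mice aged 5 to 6 months, in 3 groups of 2 mice: BIX01294-treated FAD mice, FAD mice and WT mice. FAD mice are the labels' name for animals modelling familial Alzheimer's disease. BIX01294 is an inhibitor of the methyltransferases EHMT1 and EHMT2, and FAD-BIX mice carried both the FAD genotype and this treatment. Each mouse gave 1 H3K9me2 ChIP library and 1 input library from formaldehyde-fixed tissue. Neither the transgene's promoter nor the dose is given in the sources used here, and the tissue is a mixture of neurons, glia and vessel cells.

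H3K9me2 is a mark of closed, gene-poor chromatin. EHMT1 and EHMT2, also called GLP and G9a, form a complex that writes the mark across broad domains rather than at sharp sites. In differentiated tissues, brain included, such domains can cover large parts of chromosomes. The study asked whether blocking EHMT1/2 reverses changes of this mark in the diseased cortex.

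A small number of intronic regions reach into the first bases of another transcript, and for these the letters can be shown. Windows from 250 bases before to 50 bases after an annotated start (RefSeq, GRCm38.p6) overlapped 9 intronic regions of the FAD versus WT table and 20 of the FAD-BIX versus FAD table. The windows held a median of 1 and 2 CG dinucleotides in the 2 tables, against 7 over all 31396 windows. Of all windows of this length, 94.8% hold the letters CG on either strand and 37.6% hold 4 or fewer. Among the windows present in both tables, the 3 below hold the most CG and the others 0 to 2, so they show the CG-rich end, with each CG in capitals. Mgat4c, a glycosyltransferase gene, has a window that lies wholly inside a region in intron 6 of the gene (chr10:102374187-102374486, plus strand) and holds 6 CG at 49.0% GC. Etl4 has a window sharing 260 bases with a region in its intron 2 (chr2:20509797-20510096, plus strand), with 9 CG at 54.7% GC. The predicted gene Gm42191 starts within Naaladl2, and its window shares 208 bases with a region in intron 11 of that host gene (chr3:23939774-23940073, plus strand), with 3 CG at 49.3% GC.
Mgat4c: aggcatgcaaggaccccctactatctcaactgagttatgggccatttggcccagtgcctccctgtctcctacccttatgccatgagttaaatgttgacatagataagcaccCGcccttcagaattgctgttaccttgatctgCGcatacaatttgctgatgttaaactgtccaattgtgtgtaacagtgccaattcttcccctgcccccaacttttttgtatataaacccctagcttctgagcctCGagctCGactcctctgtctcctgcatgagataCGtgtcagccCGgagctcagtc
Etl4: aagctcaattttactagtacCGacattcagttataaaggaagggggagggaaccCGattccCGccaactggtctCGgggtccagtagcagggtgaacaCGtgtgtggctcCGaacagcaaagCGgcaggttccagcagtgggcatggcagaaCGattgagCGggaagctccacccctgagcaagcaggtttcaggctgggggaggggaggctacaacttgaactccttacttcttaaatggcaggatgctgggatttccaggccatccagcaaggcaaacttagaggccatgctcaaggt
Gm42191: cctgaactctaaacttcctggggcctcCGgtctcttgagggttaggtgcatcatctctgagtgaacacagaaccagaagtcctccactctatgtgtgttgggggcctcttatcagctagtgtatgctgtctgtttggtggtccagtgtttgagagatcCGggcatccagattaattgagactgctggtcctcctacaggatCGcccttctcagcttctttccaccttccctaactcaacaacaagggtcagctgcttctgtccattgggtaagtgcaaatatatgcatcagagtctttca

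At these 3 regions the counts were low. The Mgat4c region (102374120 to 102374691 in the FAD versus WT table) held 12 and 30 ChIP reads in FAD mice and 25 and 16 in WT mice. Its slightly longer counterpart in the FAD-BIX versus FAD table held 24 and 17 reads in FAD-BIX mice and 14 and 31 in FAD mice. The ranges of the groups overlapped in both tables. The Etl4 region held 7 and 3 reads in FAD-BIX mice, 9 and 21 in FAD mice and 3 and 8 in WT mice. By raw count both FAD mice were above the other 4 there, with 9 reads in FAD 1 against 8 in WT 2. This region has the same coordinates in both tables, so a FAD library had called it. The order is therefore a description only. The region at Gm42191 held 18 and 13 reads in FAD-BIX mice, 17 and 23 in FAD mice and 14 and 10 in WT mice.

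ChIP libraries held 20.45 M and 22.00 M reads (M for 1e6) in FAD-BIX mice, 24.94 M and 20.80 M in FAD mice and 24.49 M and 26.58 M in WT mice, and inputs held between 13.92 M and 23.76 M. An intronic region was typically covered by few of them. The median was 11 and 11 ChIP reads in FAD-BIX mice and 11 and 17 in FAD mice in the second table, and 11 and 19 in FAD mice and 11 and 12 in WT mice in the first, over medians of 2 to 4 input reads. The median region was 323 bp wide in the FAD versus WT table and 318 bp in the other.

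Both FAD libraries stood apart, in different ways. At a region 1150 bp before the start of Thy1, a neuronal surface protein whose promoter commonly drives brain transgenes, the ChIP library labelled FAD 1 held 4 reads and FAD 2 held 839, against 5 and 2 in WT mice. The inputs showed the same, with 9 and 363 reads in FAD mice and 2 and 12 in WT mice, and FAD-BIX mice held 569 and 548 ChIP reads there. The library labelled FAD 1 thus resembled WT at this locus, and it also held high counts in introns at heart muscle genes, given below. FAD ChIP 2, for its part, supplied more calls than any other library: 4408 of the 7750 intronic regions (56.9%) in the first table and 4269 of 10152 (42.1%) in the second were called in it alone. Region and gene calls, median folds, ChIP over input differences and the gradient with gene length are also given without each library, and other values are not. Thy1 is not an intronic region of the set and was named after its values had been seen.

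Long genes carried a large share of the intronic regions. Over genes with at least 1 region and a known length, the number of regions per gene followed gene length with a Spearman's rho of 0.59 in the FAD versus WT table (2459 genes) and 0.59 in the FAD-BIX versus FAD table (2803 genes). These coefficients are across genes, which share libraries and depth, and describe the tables only. A single region was the rule: 1453 genes (55.1%) in the first table and 1591 (53.0%) in the second held 1. At the other end, 141 genes with 10 or more held 2633 regions (34.0%) in the first table, and 208 such genes held 4244 (41.8%) in the second. The median gene was 91.4 kb long in the first table, while the median region sat in a gene of 301 kb. Genes over 500 kb were 6.83% of the genes with a length and held 32.5% of the regions in the first table, and 6.10% holding 33.7% in the second.

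**Figure D1:**
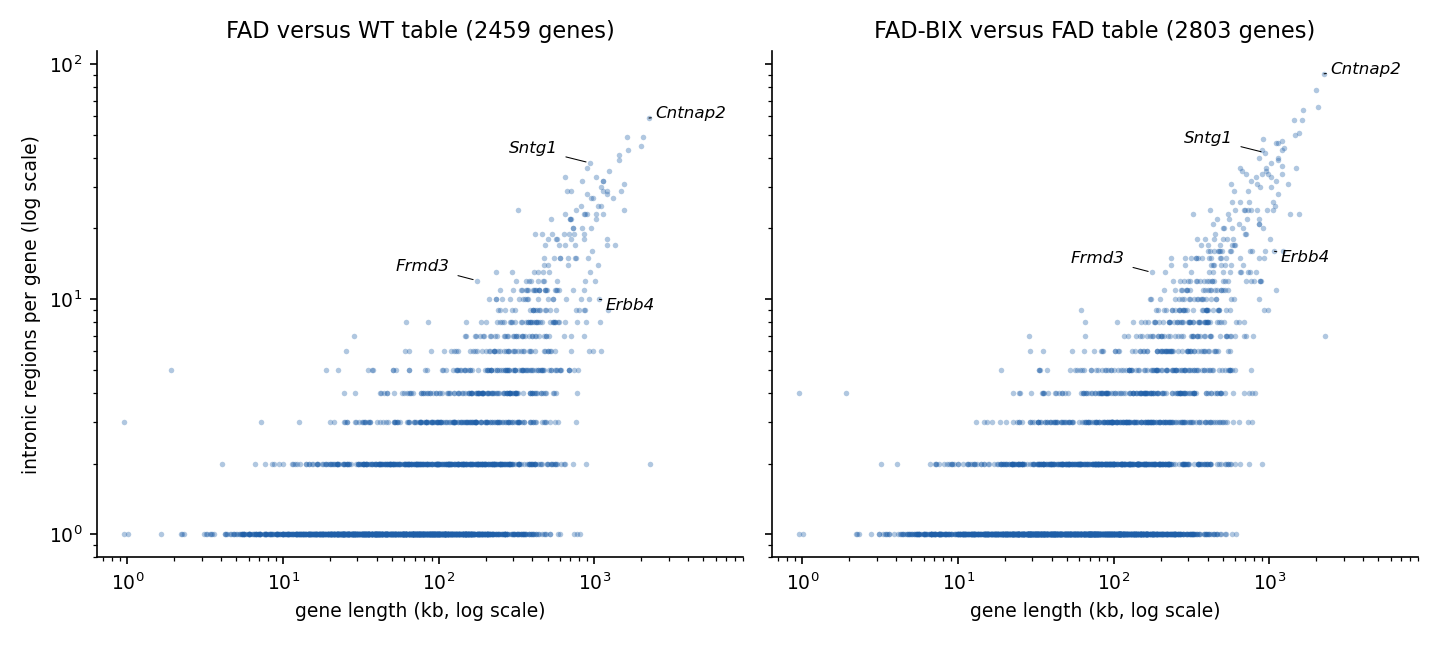
Intronic regions per gene (vertical log axis) against gene length in kb (horizontal log axis), 1 point per gene, with 1 panel per table. The points climb to the right, with Spearman's rho of 0.59 in both tables, and Cntnap2 is highest with 59 and 91 regions.

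Length alone would raise the count of any gene, so regions were also counted per megabase of sequence, more than 2000 bp from any annotated start. Sequence shared by overlapping protein-coding genes went to the longest of them. Shares of genes are over all genes of a class, including any lying wholly inside a longer gene or near a start. Such genes could hold no region, which lowers the shares of short genes. Densities use the same assigned sequence for regions and for length. Among 15940 RefSeq protein-coding genes under 50 kb, 2.59% held an intronic region of the FAD versus WT table, at 2.54 intronic regions per Mb. Among 729 genes of 200 to 500 kb 64.9% did, at 8.56 per Mb. Of the 55 genes over 1000 kb 94.5% did, at 15.1 per Mb. Density was higher at each step of gene length. The FAD-BIX versus FAD table had the same order, with 3.04, 11.4 and 21.3 intronic regions per Mb in these 3 length classes.

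Counting regions of any class by coordinates gave a like gradient without relying on the tables' intron labels. The FAD versus WT table had 3.67 regions per Mb in genes under 50 kb, 3.65 in genes of 50 to 100 kb, 5.50 in genes of 100 to 200 kb, 10.3 in genes of 200 to 500 kb, 16.7 in genes of 500 to 1000 kb and 21.5 in genes over 1000 kb. Outside all gene spans the value was 17.0 per Mb, with assembly gaps counted in the length. In the FAD-BIX versus FAD table the values ran 4.49, 4.76, 7.20, 13.5, 22.5 and 29.7 per Mb over the same classes, and 21.8 per Mb outside gene spans. Short genes were thus several-fold below the sequence between genes, and genes over 1000 kb were above it.

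**Figure D2:**
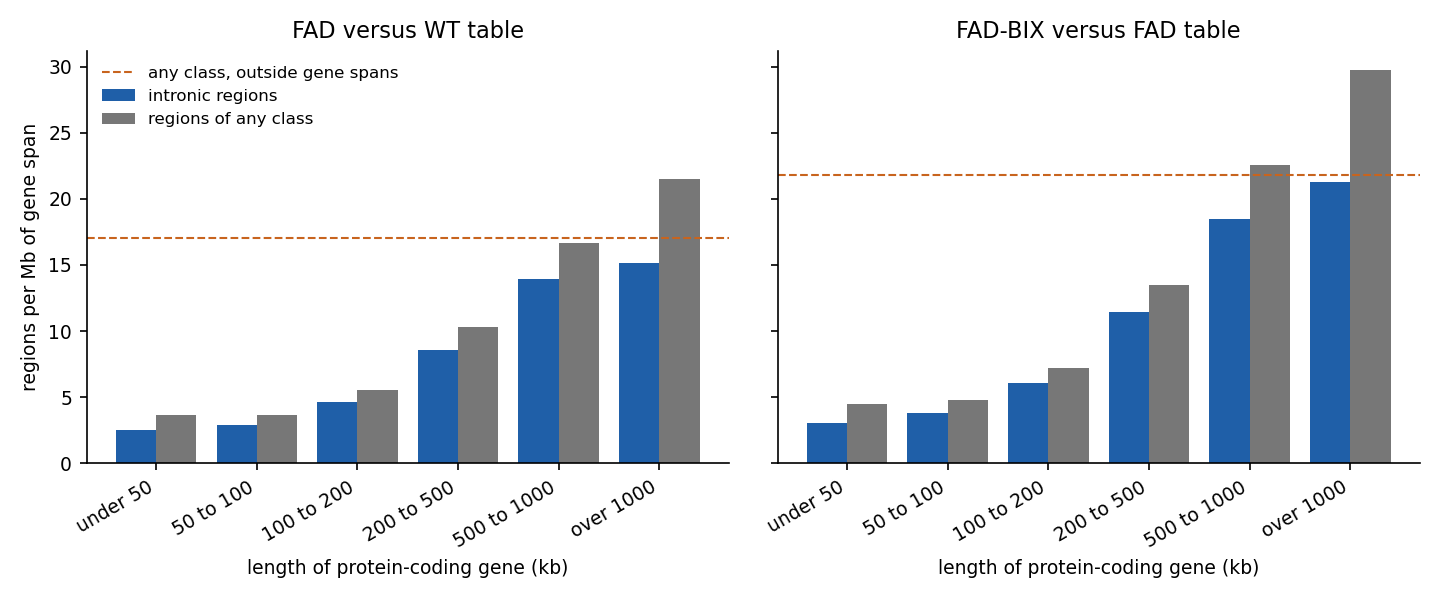
Regions per Mb (vertical axis) in RefSeq protein-coding genes grouped by length (horizontal axis), for intronic regions and for regions of any class, with 1 panel per table and the level outside gene spans as a line. In the FAD versus WT table regions of any class reach 21.5 per Mb in genes over 1000 kb, above the 17.0 per Mb outside gene spans, and stand at 3.67 in genes under 50 kb.

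The genes richest in intronic regions were very long, and several encode adhesion or receptor proteins of neurons. Cntnap2, a neurexin-family adhesion protein of the axon, held 59 regions in 2241 kb in the FAD versus WT table and 91 in the FAD-BIX versus FAD table. Macrod2, a macrodomain protein, held 45 and 78, the lipoprotein receptor relative Lrp1b 49 and 66, and Fhit, a diadenosine triphosphate hydrolase, 49 and 58. Csmd1, a complement-control membrane protein, held 43 and 64, and the glypican Gpc5 39 and 58. Cntnap5a held 36 regions in 903 kb and 48 in the second table, and the syntrophin Sntg1 38 in 938 kb. The contactin Cntn5 was also among the first table's 10 with 35, while Nrxn3, a presynaptic adhesion receptor, and Nkain2 entered the second table's 10 with 51 and 47.

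Density differed several-fold between genes, also among those over 1000 kb. Among genes with at least 10 intronic regions, Frmd3 (176 kb) was densest in both tables, at 68.0 per Mb with 12 regions and 73.7 per Mb with 13. A short gene can enter this set only if dense, so short genes at its dense end and long ones at its sparse end follow. Kctd8, an auxiliary subunit of GABA-B receptors, followed in the first table at 55.9 per Mb, and Klhl1 reached 45.9 and 58.0 per Mb. At the sparse end were Erbb4, a neuregulin receptor, with 10 regions in 1077 kb (9.29 per Mb), and the cadherin Cdh13 with 10.9 per Mb in the first table. Auts2 had 6 regions of any class in 1106 kb in the first table (5.43 per Mb) and 11 in the second (9.95 per Mb), the lowest of the genes over 1000 kb in both. Tenm2, a teneurin adhesion protein, was next lowest with 7.31 and 13.0 per Mb. The densest of these giants by regions of any class was Agbl4 in the first table (33.9 per Mb, 43 regions) and Dpp10, a potassium channel partner, in the second (47.6 per Mb, 72 regions). The genes of this paragraph were chosen for these densities after their values had been seen.

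The intron labels of the tables missed some gene bodies. Of 24174 autosomal regions that the FAD versus WT table placed between genes, 1331 (5.51%) lay inside the span of a RefSeq protein-coding gene, and 1746 of 31083 (5.62%) did in the other. All 16 regions inside Pde4d, a cyclic AMP phosphodiesterase, and all 8 inside Wwox were placed between genes in the first table, as were 31 of 39 inside Rbfox1, a neuronal splicing factor. These genes were chosen after their values had been seen. The regions so placed resembled the intronic ones in enrichment. Their median log2 ChIP over input was 1.08 and 2.18 in FAD mice and 1.18 and 0.97 in WT mice, close to the intronic medians below. Assigning regions to RefSeq genes by coordinates gave Spearman's rho with gene length of 0.63 (2192 genes) and 0.65 (2512 genes). Counts of intronic regions per gene are therefore lower limits for such genes.

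Within genes, regions were spread along the whole body. Intron 1 held 22.1% of those in the FAD versus WT table, intron 2 held 16.1%, intron 3 held 11.1%, introns 4 to 9 held 21.9%, later introns 14.9% and the last intron 13.9%. The median host gene was 247 kb long for intron 1 and 424 kb for introns 10 and beyond, but 84.2 kb for last introns. Dividing each gene into 5 equal parts from start to end gave 17.6%, 22.5%, 22.3%, 20.3% and 17.3% of 6065 regions. In genes over 500 kb the shares were 18.2%, 20.9%, 21.4%, 21.3% and 18.3%, so the parts of long genes held nearly equal shares. The FAD-BIX versus FAD table gave 22.5% in intron 1, 13.8% in the last intron and shares of the 5 parts between 17.5% and 23.0%. Median ChIP over input in each mouse differed little between intron classes, from 1.01 to 1.20 in the ChIP library labelled FAD 1 and from 0.82 to 0.97 in WT 2.

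ChIP over input, as log2 of the ratio of library-scaled counts with 1 read added to each, was above 0 in every mouse. The median over intronic regions was 1.08 and 2.20 in FAD mice and 1.07 and 0.87 in WT mice in the FAD versus WT table. FAD mice averaged 1.64 ± 0.79 and WT mice 0.97 ± 0.14 (SD, n = 2 each). The difference of 0.67 had a two-sided exact permutation p of 0.333, which is the smallest that 2 mice against 2 can give. FAD 2 alone lay clear of the other 3 mice. The levels depended on the read added, since input counts were low. With 5 reads added in place of 1, FAD mice averaged 0.82 and WT mice 0.51. The difference was then 0.31, with an exact permutation p of 0.667. The regions are pooled calls of these same libraries, 4408 of 7750 from FAD ChIP 2 alone. That choice itself raises the FAD 2 median, so the test cannot decide between the groups. In the FAD-BIX versus FAD table the medians were 1.11 and 1.56 in FAD-BIX mice and 1.05 and 1.95 in FAD mice, averaging 1.34 ± 0.32 and 1.50 ± 0.63, a difference of -0.17 with an exact permutation p of 1. FAD-BIX mice lay between the FAD mice. With 5 reads added FAD-BIX mice averaged 0.50 and FAD mice 0.68, a difference of -0.18. Here too the libraries had chosen the regions, 4269 of 10152 by FAD ChIP 2 alone and 2014 and 2521 by a single FAD-BIX library.

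With regions called in no library but FAD ChIP 2 left out, the FAD minus WT difference was -0.25 over 3342 regions and the FAD-BIX minus FAD difference was 0.73 over 5883 regions. This choice drops the calls of 1 FAD library and keeps those made in a WT or FAD-BIX library alone, which fixes the direction, so nothing is read from it. Regions a library had called and regions it had not were also taken apart. In the regions a library itself had called, medians were 3.37 and 2.60 in FAD mice and 2.46 and 2.51 in WT mice, with FAD 1, the library with fewest calls, highest. In the regions it had not called, they were 0.90 and 1.12 in FAD mice and 0.76 and 0.67 in WT mice in the first table, and 0.71 and 0.93 in FAD-BIX mice and 0.90 and 1.12 in FAD mice in the second. So regions missed by a library's own calling were still enriched over its input in most cases. ChIP exceeded input in 79.8% and 82.3% of them in FAD mice and in 76.8% and 75.3% in WT mice.

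**Figure D3:**
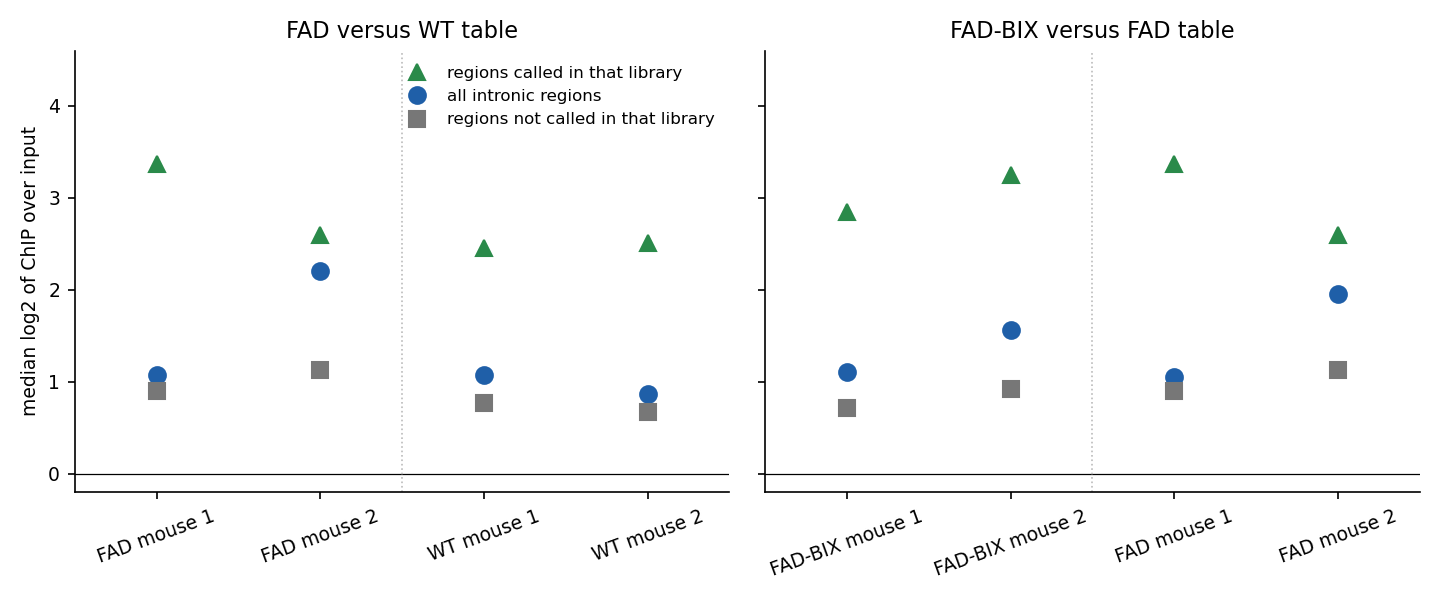
Median log2 ChIP over input of intronic regions for each mouse (points), over all regions, over those called in the same library and over those not called in it, with 1 panel per table. Over all regions FAD 2 stands highest, at 2.20 and 1.95, and over regions not called in the library all mice lie between 0.67 and 1.12.

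At the 4906 regions with the same coordinates in both tables, all 3 groups could be set side by side. The median log2 ChIP over input was 0.69 and 0.93 in FAD-BIX mice, 1.20 and 2.48 in FAD mice and 0.73 and 0.65 in WT mice. Every one of these regions had been called in a FAD library, the only libraries that both tables hold. That FAD mice stood highest follows from this choice, so the values are a description with no test.

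Among called regions, those in introns and those between genes had nearly the same median enrichment. The intronic minus intergenic difference of medians averaged 0.01 over the 4 mice of the first table, with 2 of 4 mice lower in introns and an exact sign-flip p of 1. In regions not called in the library it averaged -0.02, with an exact p of 0.5, and in the second table the averages were 0.00 and -0.02. With 4 mice the exact p cannot go below 0.125. Both classes hold only regions that these same libraries had called, which by itself brings their medians together. The tests therefore cannot decide whether the mark is equal in introns and between genes.

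Most intronic calls were made in 1 library. Of the intronic regions in the FAD versus WT table, 95.0% were called in 1 of 4 ChIP libraries, 4.61% in 2, 25 regions in 3 and 4 regions in all 4. Intronic calls numbered 941 and 4728 in FAD mice and 1556 and 944 in WT mice. In the FAD-BIX versus FAD table they numbered 2276 and 2868 in FAD-BIX mice and 936 and 4749 in FAD mice, with 8 regions called in all 4. The intronic share of a library's calls varied far less than their number, from 21.9% in FAD 2 to 26.6% in WT 1.

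Just 3 intronic regions were called in all 6 mice, and they stood far above the typical count. FAD and WT reads below are from the first table and FAD-BIX reads from the second, where the bounds differ slightly. One lay in intron 12 of Sos2 (ENSMUSG00000034801), a Ras guanine nucleotide exchange factor, at chr12:69611092-69611901. It held 64 and 41 ChIP reads in FAD-BIX mice, 84 and 40 in FAD mice and 86 and 41 in WT mice, over 3 to 16 input reads. The ranges of the 3 groups overlapped almost fully. Another lay in intron 3 of Dlgap2 (ENSMUSG00000047495), a postsynaptic scaffold protein, at chr8:14306622-14307470. It held 163 and 187 reads in FAD-BIX mice, 218 and 245 in FAD mice and 166 and 227 in WT mice, over 23 to 52 input reads. The remaining one, in the last intron of the glutaminyl cyclase gene Qpct (ENSMUSG00000024084) at chr17:79087305-79088546, held 138 and 113 reads in FAD-BIX mice, 152 and 145 in FAD mice and 323 and 198 in WT mice. Glutaminyl cyclase is known for forming the pyroglutamate end of some amyloid peptides. As RPM, here the count per M reads of the library with no read added, Qpct stood at 6.75 and 5.14 in FAD-BIX mice, 6.10 and 6.97 in FAD mice and 13.2 and 7.45 in WT mice. By RPM both WT mice were above the other 4, with 1 of them only just. Input held 2 and 10 reads in FAD-BIX mice, 8 and 18 in FAD mice and 2 and 8 in WT mice. On log2 ChIP over input Qpct stood at 5.06 and 2.71 in FAD-BIX mice, 3.29 and 2.48 in FAD mice and 6.71 and 3.85 in WT mice. On that measure FAD-BIX 1 was above WT 2.

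**Figure D4:**
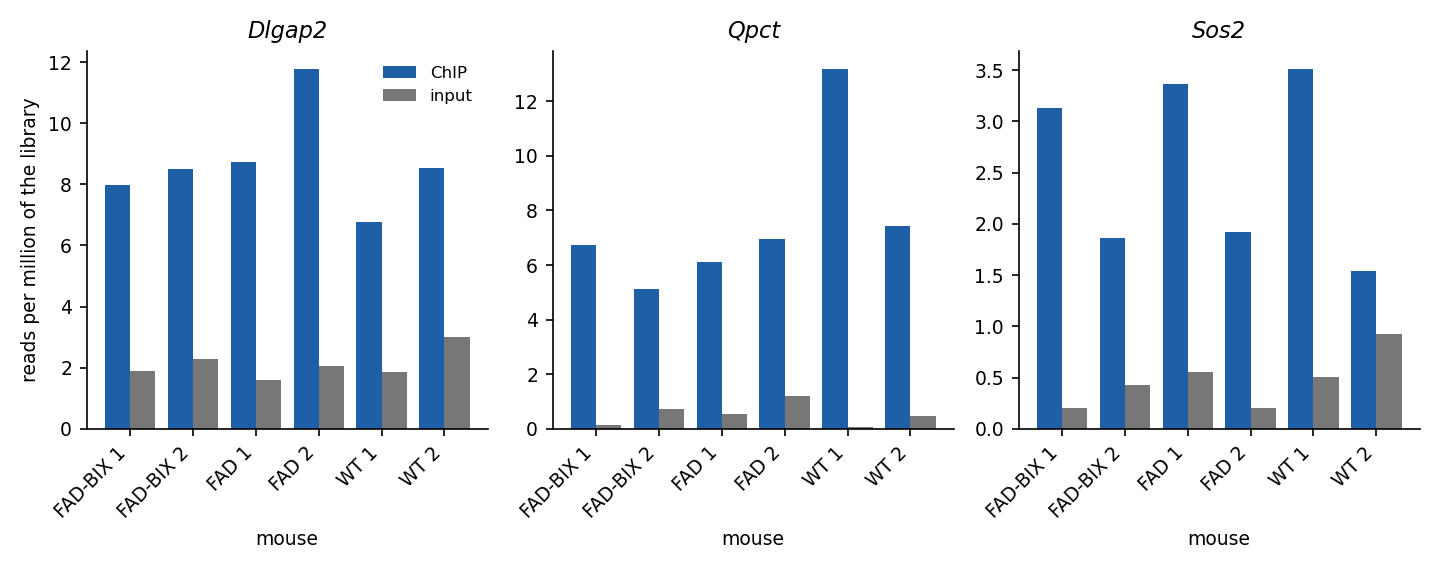
ChIP and input RPM (vertical axes) at the intronic regions of Sos2, Qpct and Dlgap2 called in all 6 mice, as bars for each mouse, ordered FAD-BIX, FAD, WT. ChIP is above input in every mouse, and at Qpct WT mice stand at 13.2 and 7.45 against 6.10 and 6.97 in FAD mice.

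The Qpct region did not pass the test between FAD and WT mice. Its log2 fold was -1.19 ± 0.51 (SE) in edgeR's quasi-likelihood test, with a Benjamini-Hochberg adjusted p of 0.832. A further region called in all 4 libraries of the first table lay in intron 1 of Usp17le, a deubiquitinase gene of a multigene family, with 102 and 78 reads in FAD mice and 57 and 95 in WT mice. In the second table Malrd1, Gpr158, Cadps and Aida also had 1 each. The Aida region (chr1:183299142-183299581) was unusual for its depth in input as well as ChIP. It held 847 and 722 ChIP reads in FAD-BIX mice and 1366 and 1476 in FAD mice, over 293 and 182 input reads in FAD-BIX mice and 309 and 391 in FAD mice.

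Whether the mark in introns differs between the disease model and healthy cortex is the question of the first table. With edgeR's quasi-likelihood test, 0 of 6132 intronic regions with enough reads passed an adjusted p of 0.05, and 0% of all 27778 regions tested did. The unadjusted p was under 0.05 for 54 regions higher and 345 lower in FAD mice, which is 0.881% and 5.63%, against 0.918% and 4.97% of all regions. This split belongs to the scaling: with library totals in place of edgeR's TMM factors it was 136 higher and 25 lower, and with limma on log2 ChIP over input 302 higher and 71 lower. DESeq2 called 0 as well, and its unadjusted p was under 0.05 for 9 higher and 165 lower regions. The median log2 fold was -0.01 over intronic regions and 0.01 over all regions. P-values here measure the spread between these 2 mice per group. On simulated data of this design edgeR recovered 5.97% of 4-fold and 62.1% of 8-fold region changes. A count of 0 calls therefore does not show an unchanged mark.

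The regions with the smallest p show what differences of that size look like, though each had an adjusted p of 0.832. On the higher side an intron 1 region of the syntrophin gene Sntb1 (chr15:55827403-55828123) held 27 and 41 ChIP reads in FAD mice and 7 and 7 in WT mice, a log2 fold of 1.83 ± 0.51 (SE). Ceacam18 had 20 and 29 reads in FAD mice against 4 and 5 in WT mice in its last intron. An intron 13 region of Cntnap2 had 13 and 38 reads in FAD mice and 6 and 2 in WT mice. All 6 such regions, the others being in Colq, Dip2c and Rgs6, had been called in FAD ChIP 2 alone, and FAD 2 held the larger count in each.

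On the lower side an intron 1 region of Dner, a Notch ligand of neurons (chr1:84607918-84608364), held 4 and 6 reads in FAD mice and 30 and 18 in WT mice, a log2 fold of -2.69 ± 0.62 (SE). An intron 5 region of the chitinase-like gene Chil4 held 6 and 8 reads in FAD mice against 23 and 33 in WT mice. In intron 4 of Macrod2 a region held 5 and 10 reads in FAD mice and 18 and 27 in WT mice, and it alone among these 12 had been called in more than 1 library, both of WT mice. Cntnap5a, Glis3 and Egfem1 completed the lower side. By raw count the groups were apart at each of these regions, and the rule that chose them asked for the same direction in both mouse numbers.

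Summing reads over the intronic regions of each gene gave fewer and deeper units. Of 2254 genes tested 5 passed an adjusted p of 0.05 in edgeR (0.222%), 1 higher (0.0444%) and 4 lower (0.177%) in FAD mice. The unadjusted p was under 0.05 for 33 genes higher (1.46%) and 91 lower (4.04%). With library totals it was so for 65 genes higher and 8 lower, and edgeR then called 1 gene higher and 0 lower, so none of the 4 lower calls was made with that scaling. Gm15319 (ENSMUSG00000074449), a predicted gene on chromosome 8, held 78 and 69 reads over 6 regions in FAD mice and 187 and 228 in WT mice. Its log2 fold was -1.79 ± 0.30 (SE) with an edgeR adjusted p of 0.00861. The groups also differed in input there, with 34 and 18 reads in FAD mice and 99 and 27 in WT mice. On log2 ChIP over input the gene stood at 0.40 and 1.48 in FAD mice and 0.87 and 2.46 in WT mice, where the groups overlapped. Without each library in turn its adjusted p in edgeR lay between 3.85e-07 and 0.0293. A pair of neighbouring genes without a symbol also fell, by 1.52 and 1.95 on the log2 scale, with adjusted p of 0.0239 and 0.0436 in edgeR. At the one with the smaller fold, input held 64 and 38 reads in FAD mice and 215 and 86 in WT mice, and log2 ChIP over input was 0.63 and 1.32 in FAD mice and 0.52 and 1.62 in WT mice. At the other, input held 27 and 6 reads in FAD mice and 60 and 12 in WT mice, and log2 ChIP over input was -0.27 and 1.20 in FAD mice and 0.65 and 2.31 in WT mice. On that measure the groups overlapped at both genes. Without the library FAD 2 they missed the threshold in edgeR, with adjusted p of 0.277 and 0.600. Genes of this stretch were named after their values had been seen, and near-identical copies there could share reads.

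Mrc2 (ENSMUSG00000020695), a collagen-binding endocytic receptor, was the remaining gene that fell. Its 1 region, in intron 1 (chr11:105319783-105320262), held 56 and 24 reads in FAD mice and 225 and 77 in WT mice, over 7 and 2 input reads in FAD mice and 8 and 8 in WT mice. The groups did not overlap in reads, and within each group mouse 1 held the larger count. On log2 ChIP over input they did overlap, at 2.20 and 3.12 in FAD mice and 4.77 and 2.65 in WT mice. Its log2 fold was -2.17 ± 0.47 (SE) with an edgeR adjusted p of 0.0436. Without WT 1 the fold was -1.13 with an adjusted p of 0.432 in edgeR, and without the other libraries the adjusted p lay between 1.01e-10 and 0.0495.

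The single gene higher in FAD mice, without a symbol, overlaps Actc1, the cardiac actin gene, on chromosome 2. It held 355 and 26 reads in FAD mice and 13 and 14 in WT mice, so nearly all of the difference lay in the library labelled FAD 1. The log2 fold was 3.74 ± 0.75 (SE) with an edgeR adjusted p of 0.0277, and without that library 0.22 with an adjusted p of 0.968. Another heart muscle gene had the same pattern. At Myh6, the cardiac myosin heavy chain (chr14:54963424-54964009), the FAD libraries held 86 and 2 ChIP reads and the WT libraries 13 and 11. Summed over the 10 intronic regions in 3 of 22 listed heart muscle genes, reads came to 274 and 189 in FAD mice and 143 and 94 in WT mice. Of these regions 8 lay in Ryr2, a calcium release channel that neurons also express and that the channel list holds too, with 73 and 167 reads in FAD mice and 112 and 76 in WT mice. The part of a different tissue or label in these counts was not tested.

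Below the threshold, the next gene sums lower in FAD mice were Chil4, with 12 and 10 reads in FAD mice against 35 and 56 in WT mice and an edgeR adjusted p of 0.0598, and Qpct, with a log2 fold of -1.13 ± 0.30 (SE) and an adjusted p of 0.181. On the higher side Tll1, a tolloid-like metalloproteinase, held 74 and 65 reads over 4 regions in FAD mice and 24 and 26 in WT mice, a log2 fold of 1.18 ± 0.42 (SE) with an adjusted p of 0.636 in edgeR. The genes with most regions were deeply covered and showed small differences. Cntnap2 held 934 and 1132 reads in FAD mice and 834 and 885 in WT mice, a log2 fold of -0.07 ± 0.22 (SE), although its RPM was 37.5 and 54.4 in FAD mice and 34.1 and 33.3 in WT mice. The sign of so small a fold is that of the TMM scaling. Macrod2 held 524 and 699 reads in FAD mice and 678 and 641 in WT mice, a log2 fold of -0.46 ± 0.22 (SE) with an edgeR adjusted p of 0.874, and its RPM of 21.0 and 33.6 in FAD mice and 27.7 and 24.1 in WT mice overlapped. The other 8 lay between -0.35 and 0.02.

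Leaving out a FAD library changed the region calls in opposite ways. Without the library labelled FAD 1, where FAD 2 is assumed to vary as WT mice do, 27 intronic regions passed in edgeR, all lower in FAD 2, beside 0.362% of all regions. With library totals 3 passed, also lower, while the unadjusted split was 1221 higher and 100 lower, against 12 and 841 with TMM. Of these 10 lay between 20331813 and 20631189 on chromosome 8, the stretch of Gm15319, and FAD 2 held 0 reads at 9 of the 27. Dock2, a guanine nucleotide exchange factor of immune cells, had 2 of the others in intron 22. At the larger one (chr11:34681720-34682256) FAD mice held 291 and 16 ChIP reads and WT mice 295 and 293, with input at 85 and 27 in FAD mice and 125 and 39 in WT mice. FAD 2 alone was low in ChIP, while input was lower in mouse 2 of both groups. Genes named from left-out libraries were chosen after their values had been seen. Without FAD 2, 4 intronic regions passed in edgeR, all higher and all at the Actc1 and Myh6 loci, beside 0.0694% of all regions.

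The comparison of FAD-BIX with FAD mice asks what inhibition of EHMT1/2 did to the mark. In edgeR 0 of 6913 intronic regions passed, where 0% of all 31055 regions tested passed. The unadjusted p was under 0.05 for 314 regions higher and 81 lower in FAD-BIX mice, which is 4.54% and 1.17%, against 3.93% and 1.18% of all regions. Here too the split turned with the scaling, to 35 higher and 98 lower with library totals and 89 higher and 138 lower with limma on log2 ChIP over input. DESeq2 also called 0, and its unadjusted p was under 0.05 for 123 higher and 19 lower regions. The median log2 fold was 0.06 over intronic regions and 0.03 over all. Both comparisons use the same FAD libraries, so their directions are not independent. On simulated data of this comparison edgeR recovered 8.96% of 4-fold and 60.6% of 8-fold region changes. Here too 0 calls do not show an unchanged mark.

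Among the regions with the smallest p, each with an adjusted p of 0.897 in edgeR, 6 were higher in FAD-BIX mice. An intron 1 region of Syndig1, which binds AMPA-type glutamate receptors (chr2:149839723-149840485), held 19 and 42 ChIP reads in FAD-BIX mice and 11 and 11 in FAD mice, a log2 fold of 1.86 ± 0.56 (SE). An intron 1 region of the protocadherin Pcdh7 held 23 and 26 reads in FAD-BIX mice and 10 and 7 in FAD mice. An intron 2 region of the transcription factor gene Foxp2 held 26 and 21 reads in FAD-BIX mice and 10 and 6 in FAD mice. Ralyl, Dnah12 and Pcsk5 were the others, and each of the 6 had been called in 1 FAD-BIX library alone.

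On the lower side an intron 4 region of Zfhx3, a homeobox transcription factor (chr8:108529434-108530506), held 9 and 14 reads in FAD-BIX mice and 38 and 57 in FAD mice, a log2 fold of -1.60 ± 0.49 (SE). A last-intron region of the olfactory receptor gene Olfr1220 held 9 and 2 reads in FAD-BIX mice and 29 and 29 in FAD mice, and both FAD libraries had it as a call. Actc1 was again among them, with 7 and 4 reads in FAD-BIX mice and 115 and 20 in FAD mice, where the library labelled FAD 1 held most of the reads. Fut9, Thsd7b and Isx were the others.

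No gene passed on summed intronic reads, 0 of 2437 in edgeR (0%), while the unadjusted p was under 0.05 for 76 genes higher (3.12%) and 52 lower (2.13%), and with library totals for 7 higher and 41 lower, of which 2 lower genes passed. Cdh7, a type II cadherin, held 89 and 119 reads over 6 regions in FAD-BIX mice and 64 and 73 in FAD mice, a log2 fold of 0.91 ± 0.29 (SE) with an adjusted p of 0.848 in edgeR. The proprotein convertase gene Pcsk5 held 144 and 139 reads in FAD-BIX mice and 88 and 123 in FAD mice. The netrin receptor gene Dcc held 319 and 325 reads over 25 regions in FAD-BIX mice and 233 and 305 in FAD mice. On the lower side Adcy10, a soluble adenylyl cyclase, held 10 and 9 reads in FAD-BIX mice and 38 and 51 in FAD mice. These genes were chosen for small p and the same direction in both mouse numbers, so their separation describes the choice.

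Of the 10 genes with most regions in this table, Macrod2 had the largest fold, with 1039 and 1044 reads in FAD-BIX mice against 861 and 1011 in FAD mice, a log2 fold of 0.46 ± 0.16 (SE) and an adjusted p of 0.848 in edgeR. Cntnap2 held 1336 and 1273 reads in FAD-BIX mice and 1256 and 1455 in FAD mice, a log2 fold of 0.25 ± 0.15 (SE). The other 8 lay between -0.05 and 0.33.

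Without the library labelled FAD 1, 6 intronic regions passed in edgeR, all higher in FAD-BIX mice, beside 0.0613% of all regions. With library totals 4 passed, 1 higher and 3 lower, and the unadjusted split was 82 higher and 637 lower, against 468 and 21 with TMM. With TMM and without that library the log2 fold was 4.13 at an intron 22 region of Dock2 (chr11:34681763-34682240). It held 136 and 205 reads in FAD-BIX mice and 278 and 15 in FAD mice. At an intron 6 region of Csmd1 (chr8:16499331-16499897) the log2 fold was 7.92. That region held 20 and 31 reads in FAD-BIX mice and 19 and 0 in FAD mice. Without FAD 2, 5 passed, all lower, beside 0.0581% of all regions. Of these 4 were at the Actc1 and Myh6 loci and 1 was the Aida region described above. Without FAD-BIX 1 the log2 fold was -3.89 at the Actc1 region and -3.36 at a Myh6 region in intron 33. At a Gm20388 region it was 2.44, with 29 and 138 reads in FAD-BIX mice and 38 and 23 in FAD mice. Without FAD-BIX 2 the log2 fold was -3.31 at the same Myh6 region. Listed heart muscle genes together held 154 and 164 intronic reads in FAD-BIX mice and 366 and 209 in FAD mice.

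Folds between FAD-BIX and FAD mice were slightly larger in longer genes. The median log2 fold over tested intronic regions was -0.01 in genes under 50 kb, 0.00 at 50 to 100 kb, 0.04 at 100 to 200 kb, 0.07 at 200 to 500 kb, 0.09 at 500 to 1000 kb and 0.22 over 1000 kb. The difference between the ends was 0.23. It was 0.26 without FAD-BIX 1, 0.24 without FAD-BIX 2, 0.70 without the library labelled FAD 1 and 0.09 without FAD 2, so its size depended on which FAD library was kept. In the FAD versus WT table the same difference was -0.06, and from -0.26 to -0.04 without each library in turn, the lowest of these without the library labelled FAD 1. The calls that chose the regions also differed with gene length. Their median host gene was 393 and 314 kb in FAD-BIX mice, 307 and 286 kb in FAD mice and 347 and 328 kb in WT mice. These gradients cannot be told apart from that choice.

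**Figure D5:**
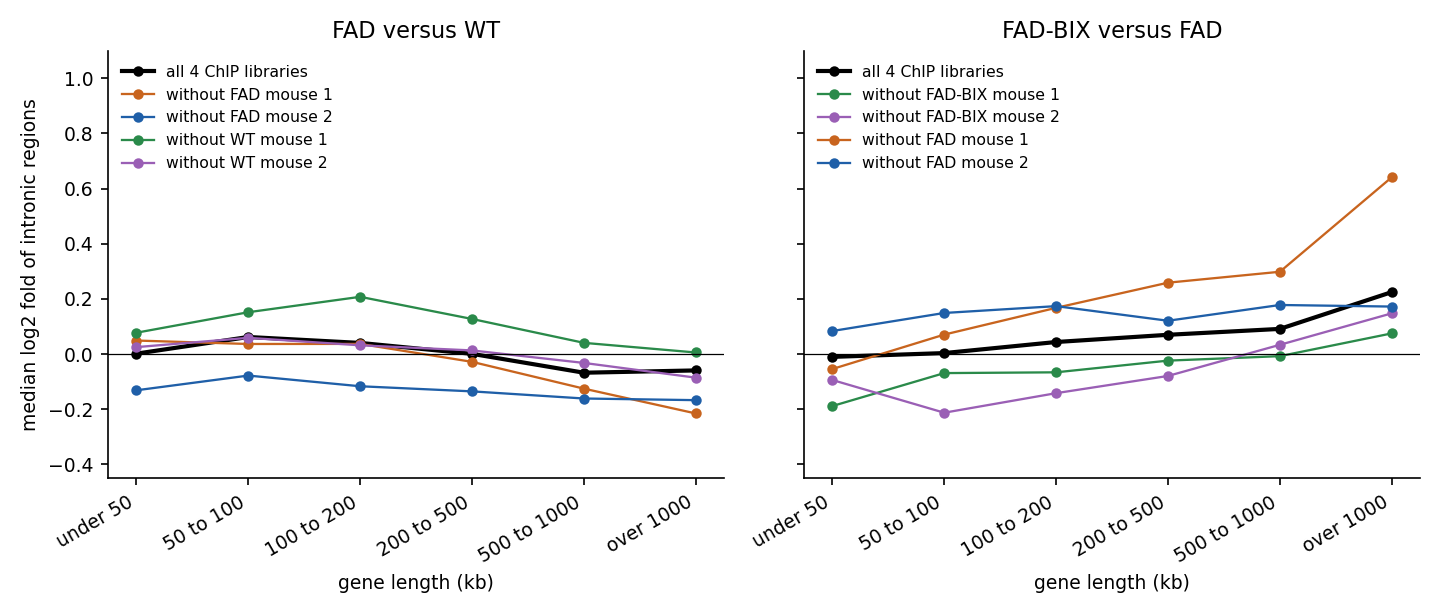
Median log2 fold of intronic regions (vertical axis) by gene length class (horizontal axis), 1 panel per comparison, with all mice and with each library left out as separate lines. In FAD-BIX versus FAD mice the median reaches 0.22 over 1000 kb and -0.01 under 50 kb, and the step is 0.70 without the library labelled FAD 1.

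Per mouse, the share of intronic ChIP reads that fell in genes over 500 kb was 34.3% and 33.0% in FAD-BIX mice and 32.4% and 30.7% in FAD mice. The difference of 2.09 percentage points had an exact permutation p of 0.333, the smallest possible, and the groups did not overlap. Input shares were 29.2% and 31.0% in FAD-BIX mice and 30.7% and 29.7% in FAD mice. At the regions with the same coordinates in both tables, ChIP shares were 30.5% and 29.8% in FAD-BIX mice and 30.2% and 29.2% in FAD mice, a difference of 0.41 percentage points with an exact permutation p of 0.667. The gap was thus smaller at the coordinates common to both tables. In the first table ChIP shares were 31.6% and 30.1% in FAD mice and 32.4% and 31.9% in WT mice, a difference of -1.30 percentage points with an exact permutation p of 0.333. In both tables the compared libraries had themselves chosen the regions, as given above, so these tests cannot decide between groups.

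Gene lists place these regions among cell functions. None of the regions or genes of 20 lists passed the edgeR test in either direction, in either comparison. Synaptic adhesion genes held 448 intronic regions in the first table and 632 in the second, in 28 of 48 genes. Their median region log2 fold was -0.14 in FAD versus WT mice and 0.20 in FAD-BIX versus FAD mice, beside 0.01 and 0.03 over all regions. Of 359 tested in FAD versus WT mice 2 were higher and 28 lower with an unadjusted p under 0.05, where all regions gave 0.918% and 4.97%. Of 442 tested in FAD-BIX versus FAD mice 22 were higher and 3 lower, where all regions gave 3.93% and 1.18%. Very long genes with no synaptic role by name, such as Fhit and Lrp1b, gave a like picture, with 416 and 560 regions in 21 of 26 genes and medians of -0.11 and 0.20. Under scaling by library totals the median over tested intronic regions was 0.62 in FAD versus WT mice and -0.31 in FAD-BIX versus FAD mice, so the sign of a list's median holds only relative to the bulk of regions.

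Receptor genes were unequally served. Ionotropic glutamate receptor genes held 115 regions in 9 of 18 genes in the first table and 149 in 10 genes in the second. Metabotropic glutamate receptor genes held 52 regions in the first table and 81 in the second, in 5 of 8 genes, led by Grm7 and Grm5. Grm7 held 609 and 625 reads over 40 regions in FAD-BIX mice and 518 and 559 in FAD mice, a log2 fold of 0.49 ± 0.18 (SE) with an edgeR adjusted p of 0.848. The groups did not overlap, as raw counts. GABA-A receptor genes held 58 and 83 regions, and Gabrg3 held 29 and 35 of them. Over the 3 receptor lists median region folds lay between -0.07 and 0.10 in FAD versus WT mice and between 0.15 and 0.33 in FAD-BIX versus FAD mice.

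Ion channel, scaffold and guidance genes were likewise led by single long genes. Voltage-gated potassium channel genes and their partners held 119 and 153 regions, led by Kcnip4 with 23 and 34. Sodium and calcium channel genes held 75 and 105, led by the calcium channel subunit gene Cacna2d3 with 25 and 33. Postsynaptic scaffold genes held 109 and 137, led by Magi2 with 29 and 36, and presynaptic release genes 112 and 158, led by Nrg3 with 30 and 46. Axon guidance genes held 124 and 187, led by the ephrin receptor gene Epha6 with 27 and 35. Cadherin genes held 89 and 119, and cyclic nucleotide signalling genes 51 and 83, where the cGMP-dependent kinase gene Prkg1 held 18 and 37. RNA-binding genes held 20 in each table.

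Cell type marker lists held regions in few of their genes. All 39 regions in astrocyte marker genes in the first table, and all 58 in the second, lay in Gpc5, 1 of 10 listed genes. Oligodendrocyte marker genes held 8 and 9, all in St18. Microglia markers held 1 in each table and endothelial markers 4 and 5. Genes of the H3K9 methylation machinery held 7 and 11 regions in 4 and 5 of 25 genes, of which Cdyl2 held 3 and 4, and Alzheimer disease genes held 1 and 3. Counts on this scale give no basis for a statement on cell types.

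In the authors' deposited table of FAD versus WT mice, 184 of 7750 intronic regions (2.37%) had a p under 0.05, 146 higher and 38 lower, beside 2.67% of all regions (2.14% higher and 0.533% lower). In their table of FAD-BIX versus FAD mice 219 of 10152 did, 95 higher and 124 lower, beside 2.09% of all (0.778% higher and 1.31% lower). The deposited q-values of all regions in both of the authors' deposited tables were 1. The split of directions differed from that of the count test with TMM above. There, and with DESeq2, lower regions outnumbered higher ones in FAD mice and higher ones outnumbered lower ones in FAD-BIX mice. With library totals and with limma, given above, the larger side was that of the deposited values in both comparisons.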

How the data were processed

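H3K9me2 ChIP and input libraries of 2 mice per group were read from 2 deposited tables of called regions. Per the labels, tissue was fixed in 1% formaldehyde for 12 minutes and reads were 50 bp single-end or 150 bp paired-end. Reads were handled with FastQC, Trimmomatic, BWA 0.7.12 and MACS2 2.1.0, per the submitters' processing notes. The tables give, as deposited by the authors, read counts, RPM, a ratio (fold enrichment of ChIP over input), a log2 fold change, a p-value and a q-value per region. The deposited RPM is (count + 1) scaled to library size, from which library totals were recovered, and the deposited fold enrichment equals the ratio of RPM values to a relative deviation of at most 6.26e-06. The notes name the build mm9, but gene positions in the tables match GRCm38, since 99.9% of 1288 genes compared overlap their RefSeq GRCm38.p6 position.

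Rows were reduced to 1 per region, leaving intronic regions as defined above; 242 and 306 of them had more than 1 gene row. The tables' gene start and end belong to the gene with the closest start, which is the region's own gene in 34.0% and 33.8% of cases, so lengths were looked up by gene ID (6065 and 7951 regions) or by symbol in RefSeq (1360 and 1801), leaving 325 and 400 without one.

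ChIP counts were tested with edgeR 4.0.16 (quasi-likelihood, TMM, filterByExpr, Benjamini-Hochberg over every tested region or gene, threshold 0.05; SE is the log2 fold divided by the root of F) in R 4.3.3, with DESeq2 1.42.0 and limma 3.58.1 as alternatives, after a check on simulated data. In that check edgeR recovered 0% of 2-fold, 5.97% of 4-fold and 62.1% of 8-fold region changes for FAD versus WT mice. For FAD-BIX versus FAD mice the shares were 0%, 8.96% and 60.6%. For gene sums they were 16.4%, 64.2% and 92.4% in the first comparison and 14.9%, 61.2% and 87.9% in the second. False calls numbered 7 and 0 for regions and 8 and 1 for genes. Other values used Python 3.11.15 and SciPy 1.17.1. Exact tests over mice are two-sided. Alternatives covered scaling, filters, pseudocounts, distance to starts, region sets and left-out libraries. The labels do not state that the numbers pair mice. Within a comparison, deviations of same-numbered mice correlated at 0.06 and -0.04, which cannot exclude pairing, since most regions held few reads.

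Genes named are the 10 with most regions per table; per direction the 6 regions and 5 gene sums with smallest p, at least median counts and the same direction in both mouse numbers; the up to 8 regions called in most libraries; and the 2 genes with most regions per list. Exceptions are marked where they stand. Members and lists were chosen with earlier results of these data known. The 2 tables have different regions and were fitted apart. Sequences are RefSeq start windows, since no genome was used here. A few genes that the naming rule selects are not reported here.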

Additional observations from a re-analysis of the deposited data

How the results depend on the processing

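Direction and size depended mostly on scaling and on the 2 FAD libraries. Intronic regions called in FAD versus WT mice numbered 1 among regions called in 2 or more libraries and 4 without regions called in FAD ChIP 2 alone, against 0; in FAD-BIX versus FAD mice they numbered 1 with library totals, 4 with no filter on low counts and 3 without regions called in FAD ChIP 2 alone, against 0. Genes called in FAD versus WT mice numbered 2 with DESeq2's size factors, 1 with library totals, 13 with no filter and 2 with DESeq2, against 5; in FAD-BIX versus FAD mice they numbered 2 with library totals and 5 with no filter, against 0. With the replicate block, which no stated pairing of the mice backs, 7 genes passed in each comparison and 0 intronic regions did. The median log2 fold of FAD versus WT mice was -0.041 with size factors and with DESeq2, 0.62 with library totals, 0.044 with no filter, 0.70 with limma on log2 ChIP over input and -0.11 without regions called in FAD ChIP 2 alone. That of FAD-BIX versus FAD mice was -0.31 with library totals, 0.076 with no filter, -0.29 with limma, 0.013 among regions called in 2 or more libraries and 0.040 without regions called in FAD ChIP 2 alone. The ChIP over input difference was -0.25 and 0.73 without those regions, a choice that fixes its direction. Without 1 library each, calls ran from 0 to 27 regions and from 0 to 269 genes in FAD versus WT mice, and from 0 to 6 regions and from 0 to 42 genes in FAD-BIX versus FAD mice. The 269 (261 higher in FAD mice) and the 42 (39 lower in FAD-BIX mice) came with library totals and without the library labelled FAD 1; with TMM the same samples gave 16 genes, all lower, and 6 genes, all higher, within ranges of 7 to 16 and 3 to 6. Median folds in FAD versus WT mice ran from -0.14 to 0.11 with TMM and were 1.04, -0.081, 0.69 and 0.72 with library totals without FAD 1, FAD 2, WT 1 and WT 2. In FAD-BIX versus FAD mice they ran from -0.055 to 0.23 with TMM and were -0.40, -0.37, -0.44 and 0.37 with library totals without FAD-BIX 1, FAD-BIX 2, FAD 1 and FAD 2. For the ChIP over input differences the ranges were from 0.11 to 1.23 and from -0.62 to 0.28, with FAD-BIX minus FAD positive without FAD-BIX 1 (0.06) and without FAD 2 (0.28). Spearman's rho with gene length was 0.41 and 0.43 among regions called in 2 or more libraries, 0.56 without regions called in FAD ChIP 2 alone in the first table, and 0.63 and 0.65 by coordinates. The causes were not tested. Alternatives on the FAD ChIP 2 calls, on RefSeq coordinates and on library totals with a library left out were chosen after seeing the data. Intronic regions held a median of 11 to 19 ChIP reads per library, with 2 mice per group.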
